A study of Mus musculus with 10 samples.

Results

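The genes described here are the CIC::DUX4 fusion transgene of the dFLEx mouse model and the mouse genes for CIC itself and for proteins known to work with CIC or with the fusion. They were chosen by name: 7 of the 56750 features of the count table, of which 2 (CIC_DUX4 and HA-tag) lie on the contig of the construct and 5 (Cic, Atxn1, Atxn1l, Ep300 and Crebbp) are mouse genes. All 7 passed the filter on low counts, the construct features through the dFLEx tumors alone. RNA was measured in 9 libraries of 5 sarcomas: 6 libraries of 3 dFLEx tumors (170019, 170024 and 170025) and 3 libraries of 2 KP tumors (3800 and 3802). The dFLEx CDS +/- mice carried 1 allele of the construct, in which a CAG promoter drives the fusion once Cre and FLPE have turned its 3xHA CIC exon and its CIC/DUX4 exon into the reading direction. Plasmids with pCAG-Cre and pCAG-FLPE were put into the gastrocnemius muscle of adult mice by electroporation. The KP tumors came from mice of the KP model, whose genotype includes p53fl/fl, and do not carry the construct; the labels name no allele or treatment that both groups share. Each tumor's RNA was split into duplicate libraries, so the duplicates measure technical spread only and the tumor was the replicate; a second labelled library of 3802 is not analysed here. The CAG promoter is strong and active in most cell types, so the fusion was read here under that promoter and not under the native promoter of CIC.

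CIC is a DNA-binding repressor that sits at short octamer motifs near genes induced by receptor tyrosine kinase signalling. It is held in a stable complex by ataxin 1 and its paralog ataxin 1-like, encoded by Atxn1 and Atxn1l, and ERK signalling relieves its repression. Joining CIC to the C-terminal end of DUX4 turns it into an activator of the same genes, because that end of DUX4 recruits the paralogous lysine acetyltransferases p300 and CBP, encoded by Ep300 and Crebbp.

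The locations of the members were as follows. On the construct contig, HA-tag covered bases 5054 to 5155 (102 bases), and CIC_DUX4 began 87 bases further on with 4 exonic blocks between 5243 and 10623, of which the first held 4506 of the 4995 exonic bases. In GRCm39, Cic lies at chr7:24967129-24993584 (+ strand), Atxn1 at chr13:45703231-46118484 (- strand), Atxn1l at chr8:110453083-110464371 (- strand), Ep300 at chr15:81469552-81536278 (+ strand) and Crebbp at chr16:3899192-4031861 (- strand). The values of these genes count reads on their exons, whose union ran from 7526 bases in Atxn1l to 14273 in Ep300. Exons of Atxn1 shared 375 bases with Gmpr and those of Ep300 shared 54 bases with Gm55386, and reads on those bases were not counted.

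The construct was placed at the Rosa26 locus, and the genotyping primers that the study lists for the wild-type allele show where that is. They are shown because the fusion is expressed from this site and not from Cic. Both matched GRCm39 exactly at 1 place each, at chr6:113053092-113053113 (- strand) for the forward and chr6:113052813-113052836 (+ strand) for the reverse primer, which enclose a stretch of 301 bases. The forward primer lies in annotated exons of Gt(ROSA)26Sor and of the oppositely oriented gene Setd5, and the reverse primer in an exon of Gt(ROSA)26Sor only. The other 6 primers listed by the study had no exact match in the mouse genome.
WT forward: gggagtgttgcaatacctttct
WT reverse: cagatgactacctatcctcccatt

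The mouse Cic gene has alternative start sites for its long and short isoforms, and RefSeq lists a promoter window for 2 of them (250 bases before to 50 after the start, build GRCm38.p6). The windows were searched on both strands for the CIC octamers TGAATGAA, TGAATGGA, TCAATGAA and TCAATGGA. Neither Cic window held one, and nor did the windows of Atxn1l, Ep300 and Crebbp; Atxn1 had no window in the table. Among 32851 windows of the same length, 3.84% held at least 1 of the octamers. Of the 7 target genes that the study names, 5 had a window and 3 of them (Dusp6, Shc4 and Spred3) held an octamer. The Cic windows, at chr7:25267449-25267748 and chr7:25281929-25282228 (+ strand), are printed beside that of Dusp6, at chr10:99262981-99263280 (+ strand), to set the mouse counterpart of the fusion's DNA-binding part beside a target with the motif in its promoter. Capitals mark octamers; both in Dusp6 are TCAATGGA on the opposite strand. A match is a description of letters and not of binding.
Cic upstream start: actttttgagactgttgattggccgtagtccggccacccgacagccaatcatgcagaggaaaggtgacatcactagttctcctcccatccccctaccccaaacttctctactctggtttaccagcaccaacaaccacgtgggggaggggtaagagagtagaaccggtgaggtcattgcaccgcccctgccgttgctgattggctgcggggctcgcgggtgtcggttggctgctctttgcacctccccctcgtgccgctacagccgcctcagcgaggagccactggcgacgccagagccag
Cic downstream start: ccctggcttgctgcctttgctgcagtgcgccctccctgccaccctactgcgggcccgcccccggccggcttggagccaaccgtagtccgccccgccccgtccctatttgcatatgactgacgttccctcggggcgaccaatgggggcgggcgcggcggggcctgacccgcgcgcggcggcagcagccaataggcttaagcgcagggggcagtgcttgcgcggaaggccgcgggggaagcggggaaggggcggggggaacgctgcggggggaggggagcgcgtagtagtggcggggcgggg
Dusp6: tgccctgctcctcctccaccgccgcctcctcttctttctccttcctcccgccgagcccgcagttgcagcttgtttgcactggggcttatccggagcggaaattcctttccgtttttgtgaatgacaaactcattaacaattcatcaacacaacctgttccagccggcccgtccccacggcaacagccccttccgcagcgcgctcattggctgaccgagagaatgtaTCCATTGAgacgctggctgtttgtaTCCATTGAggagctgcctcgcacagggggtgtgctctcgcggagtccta

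Library totals ran from 20503474 to 46302223 counts, and between 24280 features (a library of 3800) and 36904 (3802, the smallest library) had a count. The libraries of 170025 and 3800 had fewer features with a count (24280 to 25572) than those of 170019 and 170024 (29186 to 31768), and this split ran across the groups. A count of 3, the limit used where a library had none, corresponded to 0.0648 to 0.146 CPM, the unit in which counts are scaled to a common library total. Each mate of a read pair was counted, and reads are not independent molecules, so the 95% intervals below cover counting error only.

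The presence of the fusion RNA in each tumor was examined first, since it checks the group labels. CIC_DUX4 was counted in all 3 dFLEx tumors and was at or near 0 in both KP tumors. Its level on library totals was 89.3 and 89.2 CPM in the duplicates of 170019, 188 and 197 CPM in those of 170024, and 407 and 412 CPM in those of 170025. Both libraries of 3800 had 0 counts, and the library of 3802 had 6 counts, or 0.293 CPM (95% Wilson interval 0.134 to 0.639). The origin of these 6 counts was not tested. The tumor means were 89.3, 192 and 409 CPM, a mean of 230 ± 163 (SD, n = 3) against 0.146 ± 0.207 (n = 2) in KP tumors. The groups did not overlap, and the lowest dFLEx tumor was 305 times the level of 3802, or 140 times the upper end of its interval. KP mice lack the construct, so the difference between the groups follows from the genotype and is given without a test.

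**Figure D1:**
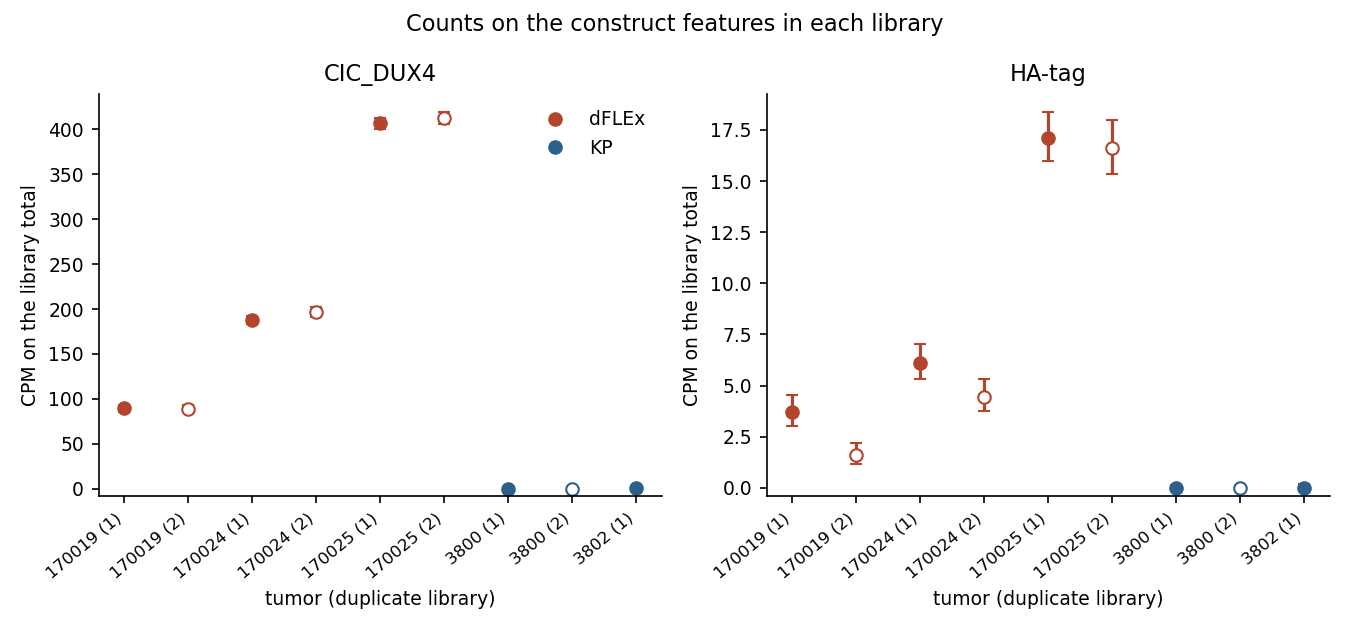
Level of CIC_DUX4 (left) and HA-tag (right) in CPM on the library total, for each duplicate library (filled: first, open: second) of the 3 dFLEx (red) and 2 KP (blue) tumors; bars are 95% Wilson intervals of the counts. CIC_DUX4 runs from 89.3 CPM in 170019 to 412 CPM in 170025 with duplicates close together, while the duplicates of HA-tag in 170019 lie at 3.72 and 1.59 CPM and all KP points lie at or near 0.

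The fusion level differed 4.59-fold between the lowest and the highest dFLEx tumor, while duplicates of a tumor differed by 0.0977% to 4.67% of their mean. The spread between dFLEx tumors was far larger than that between duplicates. On TMM-scaled CPM, which sets a common scale for the tumors, the levels were 105, 202 and 423. The fitted fold change of a feature at 0 counts in controls depends on the prior count and is not given.

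HA-tag, the short epitope in front of the fusion, followed the same order with much lower counts. It had 92 and 36 counts in the duplicates of 170019, 203 and 122 in those of 170024, and 793 and 595 in those of 170025, and 0 in each KP library. The tumor levels were 2.65, 5.29 and 16.9 CPM, a mean of 8.27 ± 7.56 (SD, n = 3). The lowest dFLEx tumor was at least 18.1-fold higher than the KP tumors, with the limit of 3 counts per library. The duplicates of 170019 differed by 80.3% of their mean, against 3.10% in 170025, so the level of this short feature carried more technical error than that of CIC_DUX4.

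Counts on HA-tag amounted to 3.02% of those on CIC_DUX4 in 170019 (95% exact interval 2.51 to 3.60), 2.80% in 170024 (2.50 to 3.12) and 4.13% in 170025 (3.91 to 4.36). The mean was 3.32% ± 0.715 (SD, n = 3). The first and second libraries of 170019 gave 4.16% and 1.78%, a gap as wide as that between any of the tumors. Per kilobase, HA-tag stood at 31.2 TMM-scaled CPM in 170019 and 171 in 170025, and CIC_DUX4 at 21.1 and 84.7. HA-tag, at 102 bases, is shorter than the reads as sequenced, so these per-kilobase values do not compare the abundance of the 2 features. Reads that span HA-tag and CIC_DUX4 lie over both features and were not counted for either, and both features are annotated on the minus strand of the contig while strand was ignored in counting.

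**Figure D2:**
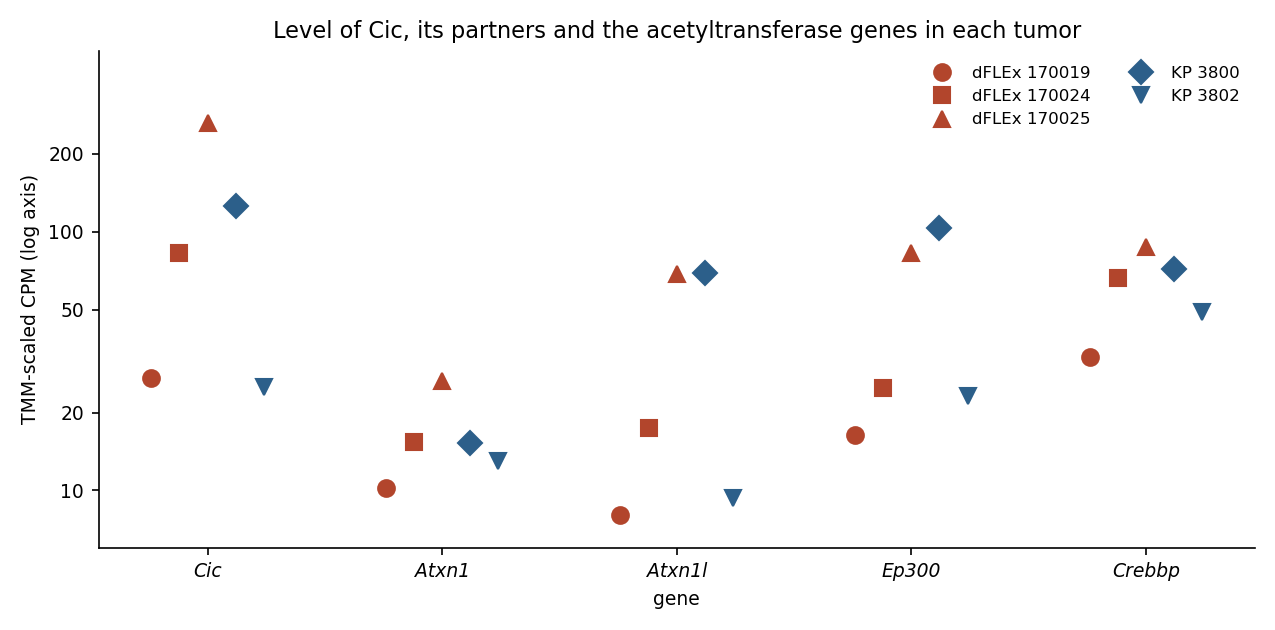
TMM-scaled CPM (log axis) of the 5 mouse genes in each of the 3 dFLEx (red) and 2 KP (blue) tumors, each point the summed libraries of 1 tumor. For Cic, Atxn1l and Ep300, dFLEx tumor 170025 and KP tumor 3800 lie above the other tumors, and for every gene the groups overlap.

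Endogenous Cic, the mouse counterpart of the DNA-binding part of the fusion, was examined next, to ask whether its level differed between the groups. Its level did not separate the groups. Cic stood at 27.2, 82.9 and 263 TMM-scaled CPM in the dFLEx tumors 170019, 170024 and 170025 and at 125 and 25.0 in the KP tumors 3800 and 3802. The highest and the second lowest tumor were both dFLEx, and the lowest was KP. The means were 124 ± 123 (SD, n = 3) and 75.2 ± 71.0 (n = 2), and the log2 fold change of dFLEx over KP was 0.72 (SE 1.04, adjusted p = 0.915 in edgeR's quasi-likelihood test). That fit called 45 of 24743 features (0.182%), 25 higher in dFLEx (0.101%) and 20 lower (0.0808%). The value rested on single tumors, being -0.45 without 170025 and 2.49 without 3800. It was -0.07 after each tumor's trend with exonic length and GC content was removed.

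Per kilobase of exon, where genes can be compared, Cic stood at 2.64, 8.05 and 25.5 TMM-scaled CPM in the dFLEx tumors and at 12.2 and 2.43 in the KP tumors. CIC_DUX4 stood at 21.1, 40.3 and 84.7 per kilobase in the same dFLEx tumors. The fusion exceeded Cic in each of the 3 tumors. The order of the tumors was the same for both, with Cic 9.67-fold and CIC_DUX4 4.01-fold higher in 170025 than in 170019. The ratio of CIC_DUX4 to Cic per kilobase was 8.00 in 170019 (95% exact interval 7.48 to 8.56), 5.01 in 170024 (4.85 to 5.18) and 3.32 in 170025 (3.26 to 3.38). The mean was 5.44 ± 2.37 (SD, n = 3), and the counting intervals of the tumors did not overlap. Nor did those of the duplicates of 170019, at 7.09 (6.49 to 7.75) and 9.30 (8.39 to 10.3), so these intervals leave out technical spread. The length and GC trend was not removed from this ratio. In the KP tumors the ratio was 0 and 0.0201. With the length of the longest Cic transcript in place of the union of its exons the mean was 4.37.

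How many reads of the fusion were aligned to mouse Cic, or the reverse, was not tested, because the sequence of the construct was not used here. KP tumor 3800 had 0 counts on CIC_DUX4 beside 9337 on Cic, and 3802 had 6 beside 615. Cic reached 125 TMM-scaled CPM in 3800 without the fusion, above 2 of the 3 dFLEx tumors. KP tumors lack the construct, so their values cannot show whether fusion reads were aligned to Cic in the dFLEx tumors.

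**Figure D3:**
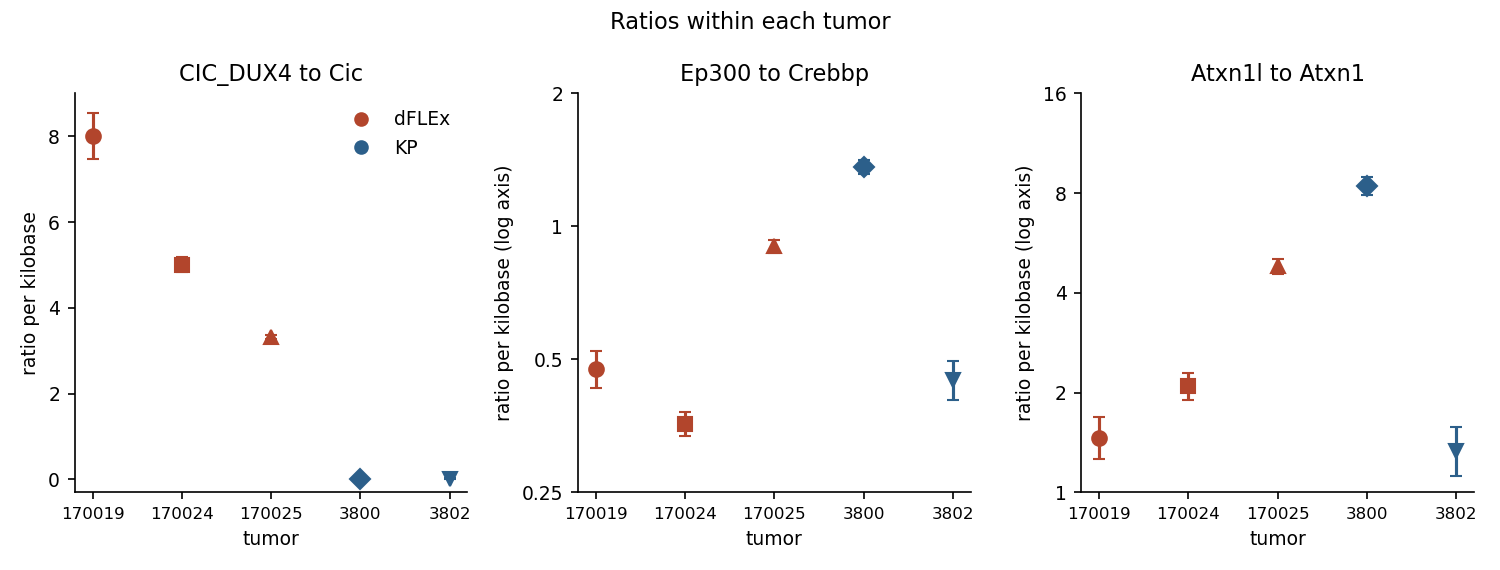
Ratio of 2 genes per kilobase of exon in each tumor, for CIC_DUX4 to Cic (linear axis), Ep300 to Crebbp and Atxn1l to Atxn1 (log axes), in dFLEx (red) and KP (blue) tumors; bars are 95% exact binomial intervals for counting error. CIC_DUX4 to Cic runs from 8.00 in 170019 to 3.32 in 170025, and the other ratios are highest in KP tumor 3800 and next highest in dFLEx tumor 170025.

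The levels of the CIC partner genes overlapped between the groups. Atxn1 stood at 10.2, 15.5 and 26.4 TMM-scaled CPM in the dFLEx tumors and at 15.3 and 13.003 in the KP tumors. The KP tumors lay within the range of the dFLEx tumors. The log2 fold change was 0.30 (SE 0.64, adjusted p = 0.948, edgeR).

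Atxn1l stood at 8.04, 17.4 and 68.8 TMM-scaled CPM in the dFLEx tumors and at 69.4 and 9.35 in the KP tumors. Tumors 170025 and 3800 were nearly level and stood well above the other 3, so the spread within each group (8.56-fold and 7.43-fold) was the larger part of its variation. The log2 fold change was -0.33 (SE 1.08, adjusted p = 0.969, edgeR), with values of -1.62 without 170025, 0.12 without 170019 and 1.93 without 3800. Per kilobase, Atxn1l exceeded Atxn1 in every tumor: the ratio was 1.46, 2.09 and 4.81 in the dFLEx tumors and 8.41 and 1.33 in the KP tumors. The groups overlapped (2.79 ± 1.78, n = 3, against 4.87 ± 5.01, n = 2; exact two-sided permutation p = 0.8, where 3 tumors against 2 allow no p under 0.2).

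The genes of the acetyltransferases recruited by the fusion were measured in all tumors at levels that overlapped between the groups. Ep300 stood at 16.4, 25.0 and 82.7 TMM-scaled CPM in the dFLEx tumors and at 103 and 23.1 in the KP tumors. As for Atxn1l, 170025 and 3800 were high and the other 3 tumors low. The log2 fold change was -0.61 (SE 0.90, adjusted p = 0.918, edgeR), ranging from -1.60 without 170025 to 1.02 without 3800.

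Crebbp stood at 32.9, 66.3 and 87.0 TMM-scaled CPM in the dFLEx tumors and at 71.6 and 48.8 in the KP tumors. Its level varied less than that of Ep300, by 2.64-fold over all tumors against 6.25-fold. The log2 fold change was 0.04 (SE 0.62, adjusted p = 0.991, edgeR), and its sign changed with the scaling, being -0.21 on library totals. The scaling moved all genes together, with the median of all tested features at -0.18 on the log2 scale under TMM and -0.47 on library totals. Relative to that median, Crebbp was 0.23 higher in dFLEx under TMM and 0.26 on library totals, Cic 0.91 and 1.00, and Ep300 -0.42 and -0.34.

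The ratio of Ep300 to Crebbp per kilobase was below 1 in each dFLEx tumor, at 0.475, 0.357 and 0.902. It was 1.36 in KP tumor 3800 and 0.448 in 3802. The means were 0.578 ± 0.287 (n = 3) and 0.906 ± 0.647 (n = 2), the groups overlapped, and the exact two-sided permutation test over tumors gave p = 0.6. The difference was -0.55 on the log2 scale with all tumors and 0.25 without 3800. Set beside the fusion per kilobase, which was not among the planned ratios, CIC_DUX4 was 18.3, 23.1 and 14.6 times Ep300 in the 3 dFLEx tumors.

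**Figure D4:**
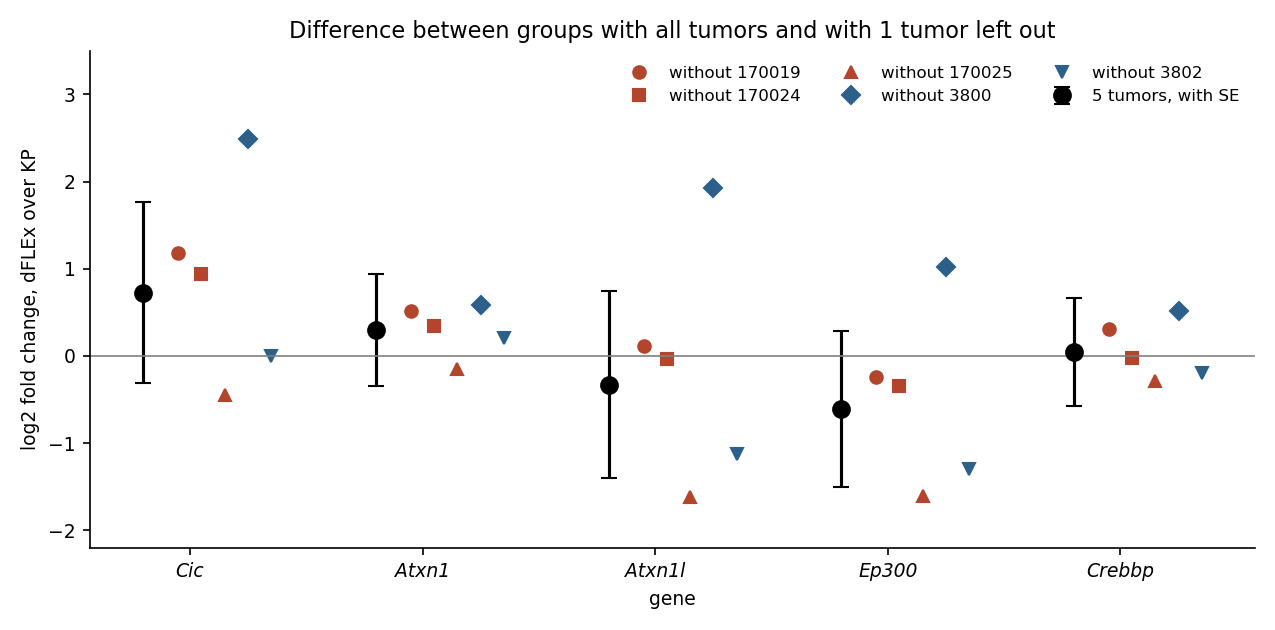
Log2 fold change of dFLEx over KP for the 5 mouse genes, with all 5 tumors (black, bar = SE of the edgeR fit) and with 1 tumor left out (colored by the group of that tumor). The SE spans 0 for every gene, and leaving out KP tumor 3800 or dFLEx tumor 170025 gives the extremes, from -0.45 to 2.49 for Cic and from -1.62 to 1.93 for Atxn1l.

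None of the 5 mouse genes passed the threshold in any of 18 alternative analyses (0 of 90 gene-by-setting fits), which called from 0 to 4815 of all features. At an unadjusted p under 0.05 the tumor-level edgeR fit held 0 of the 5, against 10.6% of all features. A change of 2-fold in either direction lay within 2 SE of the log2 fold changes of Cic, Atxn1l, Ep300 and Crebbp, so these values do not show that the groups were alike. In data simulated for this comparison, none of the genes changed by 2-fold, 22.0% of those changed by 8-fold and 86.0% of those changed by 32-fold were called.

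Per kilobase of exon, the order of the mouse genes was not the same in every tumor. Cic was the highest of the 5 in 170019, 170024, 170025 and 3800 (2.64, 8.05, 25.5 and 12.2 TMM-scaled CPM), and Crebbp in 3802 (3.61). In 170019 Cic and Crebbp (2.43) were close. Atxn1 was the lowest in each of the 5 tumors, at 0.731 to 1.90.

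**Figure D5:**
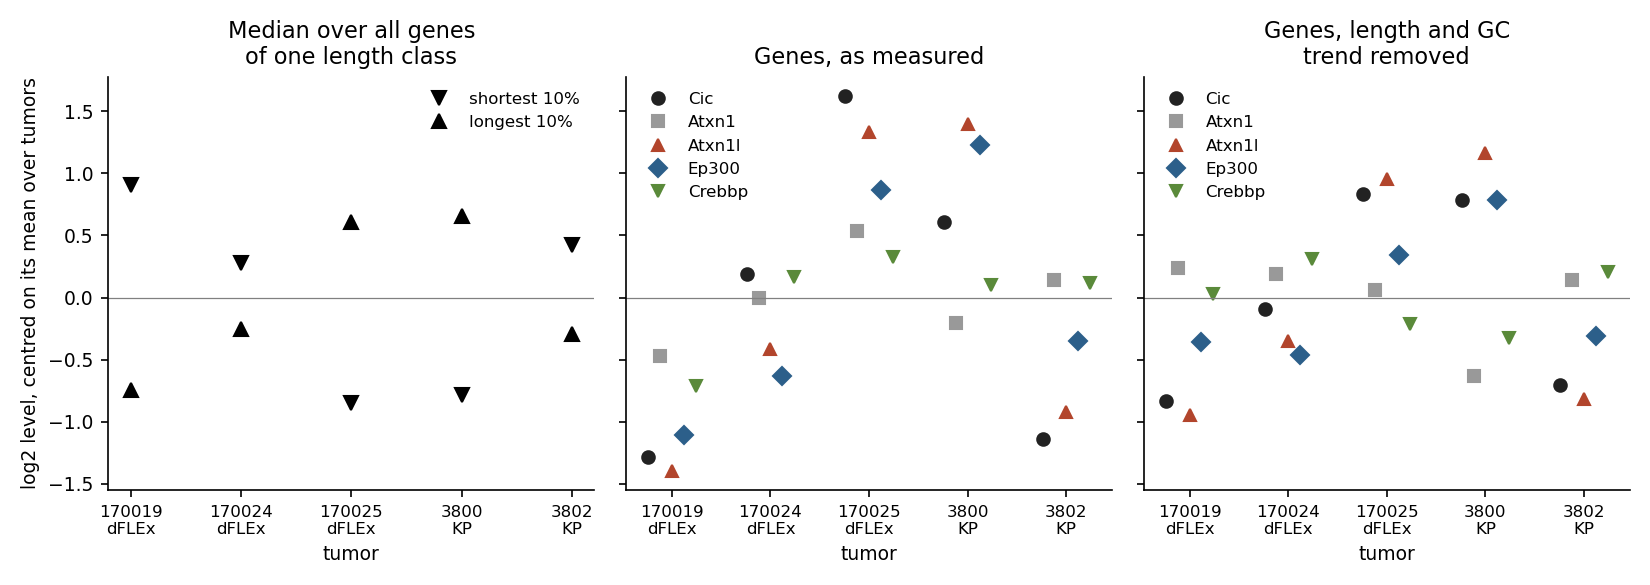
Log2 level centred on its mean over the 5 tumors. Left, the median of the shortest and the longest 10% of genes by exonic length. Middle, the 5 mouse genes as measured. Right, the same genes after each tumor's trend with exonic length and GC content was removed. The longest genes are high and the shortest low in 170025 and 3800 (0.60 and 0.66 against -0.85 and -0.79), the tumors in which Cic, Atxn1l and Ep300 are high; after removal these 3 genes still stand highest there.

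Between tumors 170025 and 3800 and the others, levels over all genes moved with gene length. The members did not follow the order of their lengths. Atxn1 and Crebbp, which are longer than Cic and Atxn1l, varied less than both over the tumors. Over the 10030 tested genes whose mean reached 10 CPM, the median centred level of the longest 10% was -0.74, -0.25 and 0.60 on the log2 scale in 170019, 170024 and 170025, and 0.66 and -0.30 in 3800 and 3802. The shortest 10% ran the other way, at 0.91, 0.28 and -0.85 in the dFLEx tumors and -0.79 and 0.43 in the KP tumors. By exonic length, Atxn1, Ep300 and Crebbp lay above 95.5% of these genes, Cic above 89.8% and Atxn1l above 77.4%. By GC content Cic lay above 98.6% of them, with 61.6% in its longest transcript.

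Over the 5 tumors, the range of log2 levels exceeded that of 85.3% of these genes in Cic, 81.2% in Atxn1l and 71.5% in Ep300, but of only 27.6% in Crebbp and 26.4% in Atxn1. The median range of the genes was 1.98, beside 3.39 in Cic, 3.11 in Atxn1l and 2.64 in Ep300. The ranges that follow come from another filter and scaling and cannot be set beside that median. The fall in range over all genes was not examined. After removal of the trend with length and GC content, done over 15320 genes whose mean reached 1 CPM, the range fell from 2.91 to 1.66 in Cic, from 2.33 to 1.25 in Ep300 and from 2.80 to 2.11 in Atxn1l. It fell from 1.04 to 0.63 in Crebbp and from 1.01 to 0.88 in Atxn1. The part of read coverage along the genes in these differences was not tested.

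The profiles of the members over the 5 tumors were set beside each other and beside other genes by the root mean square difference of centred log2 levels. For Crebbp, Atxn1 was nearer than all but 0.907% of 10029 genes (0.21), and for Atxn1l, Ep300 was nearer than all but 3.49% (0.38) and Cic than all but 6.67% (0.48). The distance between Atxn1 and Atxn1l, the paralogs, was 1.03, and that between Ep300 and Crebbp, the other paralogous pair, 0.72. Profiles over 5 tumors share the same libraries, depth and length trend, so these distances are descriptions.

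The genes nearest to Cic were Ttyh3 (0.05), a chloride channel gene, Arhgap35 (0.13), which encodes a GTPase-activating protein, and Mki67 (0.15), the proliferation marker. Ttyh3 stood at 20.3, 56.1 and 196 TMM-scaled CPM in the dFLEx tumors and at 93.8 and 18.2 in the KP tumors. Nearest to Atxn1 were Dyrk2 (0.05), Asb1 (0.08) and Rhoj (0.08). Nearest to Atxn1l were Rcor1 (0.07), which encodes a corepressor of neuronal genes, Clic4 (0.07) and Patl1 (0.08). Nearest to Ep300 were Nup214 (0.08) and Ranbp2 (0.08), both nuclear pore genes, and Cdk14 (0.09). Nearest to Crebbp were Sbno2 (0.05), Cs (0.06), which encodes citrate synthase, and Zfp282 (0.07).

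The pathway around CIC was followed in lists of genes read for their counts beside the background of 0.182% called. Of 13 co-repressor genes, 0 were called in either direction, 10 had a log2 fold change above 0, and the median was 0.42 against -0.18 over all features. The members with the smallest p were the Groucho-family co-repressors Tle2 (20.3, 22.2 and 31.6 TMM-scaled CPM in dFLEx tumors, 7.54 and 4.59 in KP tumors) and Tle4 (15.6, 23.2 and 36.0 against 5.92 and 8.53). Both lay higher in every dFLEx tumor, with log2 fold changes of 2.02 (SE 0.64, adjusted p = 0.282, edgeR) and 1.79 (SE 0.67, adjusted p = 0.384). Over all tested features, 13.7% were higher in every dFLEx tumor.

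Of 16 genes for the turnover and phosphorylation of CIC (kinases of the ERK pathway and Src, a ubiquitin ligase, a deubiquitinase and phosphoserine-binding adaptors), 0 were called, 7 had a log2 fold change above 0 and the median was -0.09. The smallest p belonged to the adaptor genes Ywhah (log2 fold change -0.77, SE 0.57, adjusted p = 0.809) and Ywhaz (-0.74, SE 0.58, adjusted p = 0.820), whose groups overlapped.

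Around the acetyltransferases, 0 of 9 other lysine acetyltransferase genes and 0 of 15 partner genes of CBP and p300 were called, with medians of -0.15 and -0.09. Kat8, a histone acetyltransferase gene, stood at 14.8, 15.7 and 25.5 TMM-scaled CPM in the dFLEx tumors and 13.004 and 4.10 in the KP tumors (log2 fold change 1.12, SE 0.72, adjusted p = 0.739). The groups of Kat2a overlapped (adjusted p = 0.904). Among the partners, Cited4 and Cited1 had the smallest p. They belong to the CITED family, whose proteins bind CBP and p300 directly. The groups of Cited2, of the same family, overlapped (log2 fold change 0.14, SE 0.58, adjusted p = 0.974, edgeR). Cited4 stood at 9.95, 28.2 and 8.68 in the dFLEx tumors and at 0.349 and 0.731 in the KP tumors. Its log2 fold change was the largest of this list at 4.87 (SE 0.95, adjusted p = 0.109). Cited1 stood at 16.9, 17.0 and 7.43 against 0.363 and 2.97 (3.07, SE 1.03, adjusted p = 0.316). Neither passed over all features in the tumor-level edgeR fit. Both lay higher in each dFLEx tumor, as did 13.7% of all tested features. DESeq2 on tumor sums called 2 of the 15 partner genes, as did edgeR with no filter on low counts, and limma-voom called 0.

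Of 12 SWI/SNF chromatin remodeller subunit genes 0 were called, 8 had a log2 fold change above 0 and the median was 0.31. Smarca2, a catalytic ATPase subunit, stood at 104, 131 and 216 TMM-scaled CPM in the dFLEx tumors and 66.0 and 54.9 in the KP tumors (log2 fold change 1.32, SE 0.59, adjusted p = 0.502), and the core subunit gene Smarcb1 at 117, 97.6 and 89.8 against 59.5 and 42.4 (1.00, SE 0.55, adjusted p = 0.645).

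Mouse genes related to the construct by sequence or by locus were also read. Of the 4 listed mouse Dux genes, Duxbl1 was in the table, at 0.995, 1.08 and 1.31 TMM-scaled CPM in the dFLEx tumors and 2.61 and 0.610 in the KP tumors. At Rosa26, Gt(ROSA)26Sor stood at 8.26, 4.07 and 4.32 in the dFLEx tumors, which carry the construct on 1 allele, and at 7.55 and 12.2 in the KP tumors (log2 fold change -0.83, SE 0.64, adjusted p = 0.817). Thumpd3, which lies beside it, was lower in each dFLEx tumor (13.4, 15.5 and 15.6 against 35.1 and 16.5, adjusted p = 0.803), as were 11.7% of all tested features. Setd5, whose exons overlap the locus, stood at 45.7, 86.3 and 265 in the dFLEx tumors and at 126 and 30.1 in the KP tumors, the same order of tumors as in Cic. Reads of Gt(ROSA)26Sor and Setd5 on their shared bases were not counted, and strand was ignored. Trp53, floxed in the KP model, was not called either, with a value of -0.46 on the log2 scale (adjusted p = 0.898, edgeR) and overlapping groups.

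The target genes were read beside the level of the fusion. All 7 that the study names had a log2 fold change above 0 (1.49 to 6.32, median 4.02). All lay higher in every dFLEx tumor. In the tumor-level edgeR fit 0 passed over all features (smallest adjusted p 0.0517, Etv4). That count depended on the settings. DESeq2 on tumor sums called 6 of the 7, and limma-voom called 7. With no filter on low counts, or with the length and GC trend removed, 6 were called. Upper-quartile scaling gave 1, as did a mean of at least 1 CPM. DESeq2 size factors, library totals, a robust fit and the first library of each tumor each gave 0. The study chose this list on these tumors, so its direction is not independent evidence. Among the dFLEx tumors, 5 of the 7 (Etv1, Etv5, Shc3, Shc4 and Spred3) had the same order of levels as CIC_DUX4, and Etv4 and Dusp6 did not. Shc4 stood at 127, 236 and 578 TMM-scaled CPM in 170019, 170024 and 170025, and Etv4 at 4211, 3732 and 2724. With 3 tumors these orders were not tested.

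Genes used as markers of other cell types were present in every tumor. In bulk RNA, fewer cells of a type and less RNA per cell cannot be told apart. The study reports endothelial genes such as Pecam1 and Cdh5 in a subcluster of tumor cells of this model, and mesenchymal genes in another. Whether the sarcoma cells themselves held part of these marker levels was not tested. The summed level of 6 myocyte markers was 5773 to 23362 TMM-scaled CPM in the dFLEx tumors and 1093 and 2953 in the KP tumors. Of 4 endothelial markers, 4 had a log2 fold change above 0 (sums 147 to 466 against 57.3 and 115). So did 4 of 4 fibroblast markers (1486 to 5440 against 809 and 1086) and 3 of 4 pericyte markers (574 to 1055 against 85.7 and 396). In the dFLEx tumors Col1a1 made up most of the fibroblast sum (893, 2252 and 5105) and Rgs5 most of the pericyte sum (826, 473 and 776). Higher in every dFLEx tumor were 4 of 6 myocyte, 1 of 4 endothelial, 2 of 4 fibroblast and 1 of 4 pericyte markers. Over all tested features the share was 13.7%. Of 5 macrophage markers, 4 were below 0 (454 to 730 against 1152 and 3923), and so were 3 of 3 T cell markers (1.45 to 4.06 against 4.88 and 34.9). Lower in every dFLEx tumor were 4 of 5 macrophage and 2 of 3 T cell markers, beside 11.7% of all tested features. None of these markers passed over all features in the tumor-level edgeR fit, and none was at 0 in any tumor. The part of these cells in the levels of Cic, Atxn1, Atxn1l, Ep300 and Crebbp was not tested.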

How the data were processed

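RNA of flash-frozen dFLEx and KP tumors was depleted of ribosomal RNA and sequenced as paired-end libraries. Per the submitters' processing notes, the authors used Trimmomatic 0.39, STAR 2.7.10a and featureCounts of Subread 2.0.3 on mm39 (GRCm39), to which, per the file headers, a contig of the construct had been added. The deposited counts are whole numbers per feature with no normalization; per the file headers, both mates had to align, each mate was counted, strand was ignored, and reads with several alignments or over several features were dropped. Losses to near-identical sequence therefore lower the counts of both members of a pair.

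Libraries of the same tumor were added together, filtered with filterByExpr, scaled by TMM and compared with edgeR 4.0.16 (glmQLFit, glmQLFTest; R 4.3.3), with Benjamini-Hochberg adjustment over all 24743 tested features and a threshold of 0.05. SE was the absolute log2 fold change over the square root of F. The study's own comparison used DESeq2 and does not say how duplicates were treated; DESeq2 1.42.0 and limma 3.58.1 served as alternatives. Single values were compared by exact two-sided permutation over tumors (10 splits, SciPy 1.17.1). Transgene levels were CPM on library totals, averaged over duplicates; ratios were per kilobase of exon with exact binomial intervals. Symbols were joined for 56017 of 56750 features from GENCODE M39. Tests were checked on simulated data. Promoters are from RefSeq, GRCm38.p6.

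Named genes were the members and, in each list, the genes past the threshold or otherwise the 2 with the smallest p. The 3 genes (mean of at least 10 CPM) nearest to each mouse member were also named. The other target genes, Setd5, Cited2, Col1a1 and Rgs5 were named outside this rule, after their values were seen. Members and lists were chosen with earlier results of these data known. Alternatives listed in advance changed the unit of replication, test, scaling, filter, dispersion, length and GC trend (loess, span 0.3) and tumors. No sequence of the construct and no protein sequence was used here. One further allele and gene of the KP model is not reported here.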

Additional observations from a re-analysis of the deposited data

How the results depend on the processing

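The count of 45 features past the threshold depended on the unit of replication and the test. It was 3344 with the 9 libraries as independent samples in edgeR, 4815 in DESeq2, 1388 with DESeq2 on tumor sums, 543 with limma-voom and the tumor as a random effect, 880 with no filter on low counts, 80 when the mean had to reach 1 CPM, 11 with a robust fit and 483 with the length and GC trend removed. With the duplicate number as a replicate block it was 2476, and none of the 5 mouse genes was called under the block. The labels give the duplicates of a tumor only a number. Between dFLEx and KP libraries, deviations from group means had a mean r of -0.02 for the same number and -0.01 for different numbers. Single pairs ran from -0.65 to 0.62 and from -0.64 to 0.61. These deviations also hold the differences between tumors, so the means cannot show whether a batch followed the number. Leaving out 1 tumor gave 0 to 414.

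None of the 5 mouse genes was called in any setting. The log2 fold change of Cic turned from 0.72 to -0.072 with the length and GC trend removed, and that of Crebbp (0.04) to -0.082 and -0.12 with independent libraries in edgeR and DESeq2, -0.024 with DESeq2 on tumor sums, -0.11 with limma-voom, -0.10 under the replicate block, -0.040, -0.21 and -0.17 with DESeq2 size factors, library totals and upper quartile, -0.12 when the mean had to reach 1 CPM and -0.12 with the first library of each tumor; the cause was not tested. With 1 tumor left out, values ran from -0.45 to 2.49 for Cic, -0.15 to 0.59 for Atxn1, -1.62 to 1.93 for Atxn1l, -1.60 to 1.02 for Ep300 and -0.29 to 0.51 for Crebbp. The mean level of CIC_DUX4 in dFLEx tumors was 228 to 243 CPM under the alternatives and 141 to 301 with 1 tumor left out, and the mean ratio of CIC_DUX4 to Cic 4.37 to 5.13 and 4.17 to 6.51. Depth limited HA-tag most, with 36 counts in a library, while the lowest count of a mouse member in a library was 144.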
